A study of Mus musculus with 21 samples.

Results

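The genes described here belong to fatty acid oxidation, the peroxisome and ketogenesis. They are 33 mouse genes given as a list of symbols, of 54532 genes in each count table, and all 33 symbols were found. They comprise 2 regulators (Ppara and Ppargc1a), 4 genes of fatty acid binding, activation and hydrolysis (Fabp1, Acsl1, Acot1 and Acot2), 5 of the carnitine shuttle (Cpt1a, Cpt1b, Cpt1c, Cpt2 and Slc25a20), 9 of the mitochondrial beta-oxidation spiral, 4 of auxiliary enzymes and electron transfer, 8 of the peroxisome and 1 of ketone body metabolism (Bdh1). Their messenger RNA was measured in 21 libraries of 7 groups, and 32 of the 33 passed the filter on low counts; Cpt1b did not.

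Long-chain fatty acids are bound in the cytosol, activated to acyl-CoA and carried into mitochondria as carnitine esters, where beta-oxidation shortens them to acetyl-CoA. Very long and branched chains, and the side chain of bile acid precursors, are shortened in peroxisomes, which release hydrogen peroxide that catalase removes. In liver the acetyl-CoA feeds ketone body synthesis during fasting, and the nuclear receptor PPAR-alpha switches on many genes of all these steps in mouse hepatocytes.

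All groups are wild type. MEF are mouse embryonic fibroblasts kept in DMEM with serum (n = 3 libraries). C6FAE are MEF in a serum replacement medium with bFGF, 5 compounds (n = 3): CHIR99021 at 20 µM, which inhibits GSK3, 616452 at 10 µM, which inhibits TGF-beta signalling, Forskolin at 50 µM, an activator of adenylyl cyclase, AM580 at 0.05 µM, a retinoid, and EPZ004777 at 5 µM, which inhibits the histone methyltransferase DOT1L. C6F(L) cells were MEF moved to hepatocyte medium with serum, insulin, 1 µM dexamethasone, nicotinamide, FGF4, HGF and EGF, together with CHIR99021, 616452 and Forskolin at the same doses for 4 days and at 3, 2 and 2 µM afterwards (n = 3). C6FAE-C6F(L) were MEF given the C6FAE treatment for 4 days and then the C6F(L) treatment (n = 4). C6F5UE-C6F(L)V were MEF whose first mixture held, in place of AM580, another retinoid, CH55, at 1 µM, and UNC0638, which inhibits the histone methyltransferase G9a, at 0.05 µM, and whose second medium also held 50 µg/ml vitamin C (n = 3). NSF-CiHeps are neonatal skin fibroblasts taken through that last protocol (n = 3), and pHeps are isolated hepatocytes after 2 days of culture (n = 2). No label says that libraries of a group were grown or taken separately, and the p-values therefore measure the spread between these libraries, which may be technical. They give no collection day for the induced cells and no library of untreated skin fibroblasts.

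Libraries held 9.18 M to 12.32 M counts. Of the 8 hepatocyte markers, the summed level was 27105 to 29079 CPM (counts scaled to a common library size) in pHeps and 23762 to 31223 in C6F5UE-C6F(L)V. It was 464 to 1718 CPM in C6FAE-C6F(L), 299 to 2159 in NSF-CiHeps, 6.48 to 39.0 in C6F(L), 1.21 to 2.83 in C6FAE and 0 to 0.252 in MEF. The 8 fibroblast markers summed to 27164 to 28119 CPM in MEF, 17768 to 19728 in C6F(L), 6890.4 to 7238 in C6FAE and 375 to 2747 in C6FAE-C6F(L). Their sum was 85.0 to 105 CPM in C6F5UE-C6F(L)V, 3.10 to 28.1 in NSF-CiHeps and 15.2 to 15.9 in pHeps. Replicate 4 of C6FAE-C6F(L) stood apart, where ribosomal protein genes took 3.42% of the counts, and 7.21% to 8.80% in its 3 companion libraries, and calls of the 33 genes that change without it are named with the comparison they belong to. Markers of other cell types also moved between groups. All 5 keratinocyte markers were detected in C6FAE-C6F(L) at a sum of 8355 to 15299 CPM, against at most 172 in any library of the other groups. The 6 intestine and stomach markers summed to 1212 to 2619.5 CPM in NSF-CiHeps, 450.0 to 455 in C6F5UE-C6F(L)V and 218 to 937 in C6FAE-C6F(L). The 6 macrophage markers summed to 1078 to 1384 CPM in MEF and 546 to 678 in pHeps, and to at most 119.8 elsewhere. Of these, C1qa, C1qb, Adgre1 and Tyrobp were at 0 in C6F5UE-C6F(L)V, NSF-CiHeps, C6FAE and C6FAE-C6F(L). The part of all these markers in the results on the 33 genes was not tested. In bulk RNA, fewer cells of a type and less RNA per cell cannot be told apart.

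Levels below are CPM scaled by TMM over the 21 libraries, and differences are log2 fold changes from edgeR's quasi-likelihood test, given with their standard error (SE). A gene was called higher or lower at a Benjamini-Hochberg adjusted p below 0.05 and a log2 fold change of at least 1 in size.

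Summed over the 33 genes, the level (mean ± SD) was 2879 ± 235 CPM in C6F5UE-C6F(L)V, 2707 ± 86.6 in pHeps, 2354 ± 289 in NSF-CiHeps and 1822 ± 29.8 in C6F(L). It was 1702 ± 148 CPM in C6FAE-C6F(L), 1565 ± 15.8 in MEF and 1561 ± 19.5 in C6FAE. The lowest library of C6F5UE-C6F(L)V, at 2614 CPM, lay below the lowest pHeps library at 2645 and below the highest NSF-CiHeps library at 2681, so these 3 groups overlapped. All 13 libraries of the other 4 groups lay at or below 1850.1 CPM, under every library of those 3. By gene, the highest group mean was in C6F5UE-C6F(L)V for 10 genes, in pHeps for 10, in NSF-CiHeps for 7, in C6F(L) for 3, in C6FAE-C6F(L) for 2 and in MEF for 1. The lowest mean was in C6FAE for 9 genes and in MEF for 8. Fabp1, at 0 in both MEF and C6F(L), is counted with neither of these 2 figures. Highest and lowest means were not counted over all genes, so these counts cannot be read as a trait of the members.

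**Figure D1:**
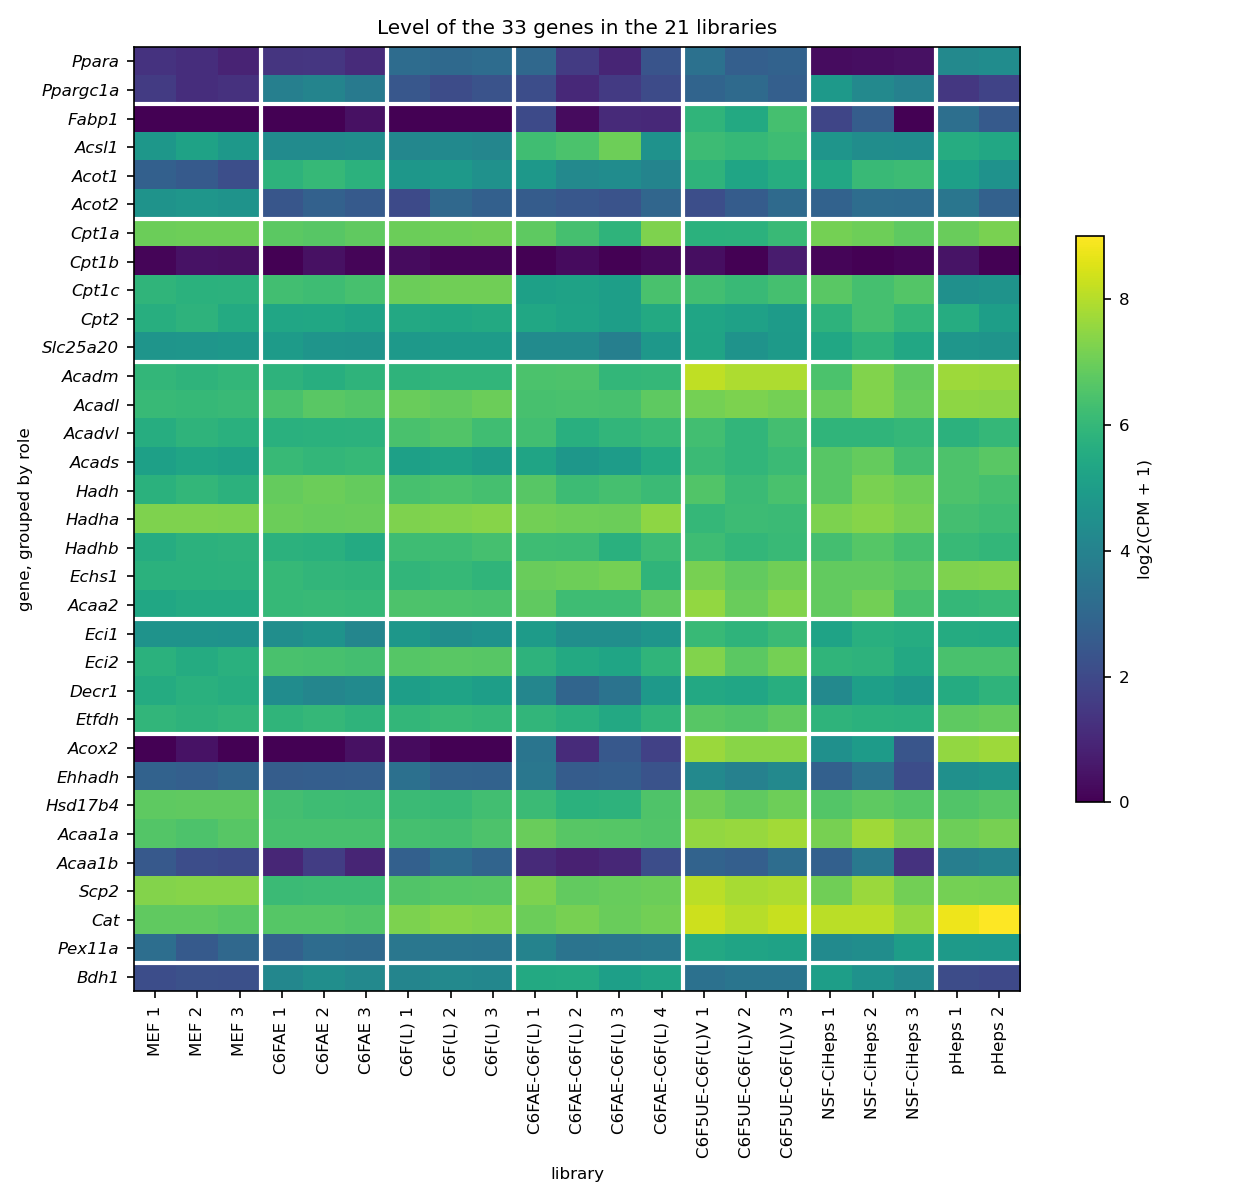
Level of each of the 33 genes (rows, grouped by role) in each of the 21 libraries (columns, grouped by treatment), as log2(CPM + 1). Acox2 and Fabp1 are near 0 in MEF, C6FAE and C6F(L) and high in C6F5UE-C6F(L)V, while most genes of the mitochondrial spiral are present in every library.

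Against MEF, cells of the C6F5UE-C6F(L)V protocol carried more mRNA of most of these genes. Of the 32 tested, 17 rose and 3 fell (53.1% and 9.38%), where 25.7% of all 18605 genes tested were called higher and 26.4% lower. The median log2 fold change was 1.08 over the members and 0.00 over all genes tested. The genes that fell were Acot2, Cpt1a and Hadha. In pHeps against MEF, 12 rose and 2 fell (Acot2 and Cpt1c), against 24.4% higher and 27.2% lower among all genes, with a median of 0.58 beside -0.03. Fabp1 and Acox2 rose in both comparisons, and with 0 and 4 counts in MEF they could not have been called lower. Both comparisons use the same MEF libraries and set libraries of different count tables side by side, so table and group cannot be told apart.

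Between C6F5UE-C6F(L)V and pHeps, which share a count table, 24 of the 32 genes were not called. The 5 that were higher in C6F5UE-C6F(L)V were Ppargc1a, Fabp1, Cpt1c, Acaa2 and Bdh1, and the 3 lower were Ppara, Cpt1a and Acaa1b, where 18.4% of 15531 genes tested were called higher and 14.7% lower. The members' median was 0.17 and that of all genes 0.01. Scaling by library size alone moved the median of all genes in this comparison to 0.15.

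**Figure D2:**
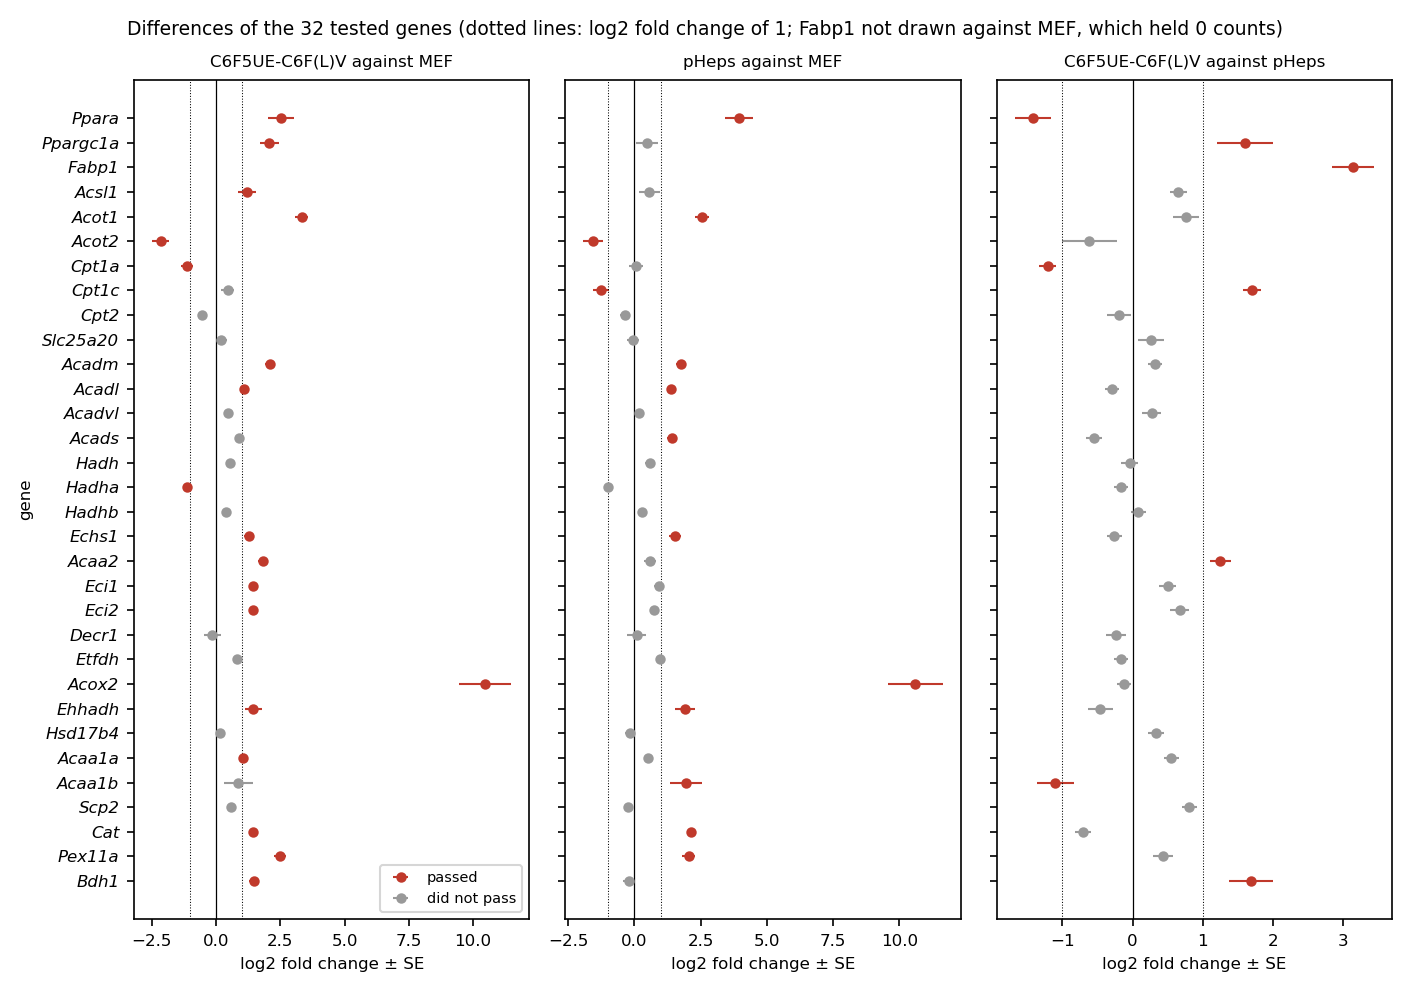
Log2 fold change ± SE of the 32 tested genes in C6F5UE-C6F(L)V against MEF, pHeps against MEF and C6F5UE-C6F(L)V against pHeps (the horizontal scales differ), with genes that passed the test in red. Acox2 lies above 10 in both comparisons with MEF and at -0.13 between C6F5UE-C6F(L)V and pHeps. Fabp1 is not drawn against MEF, where it had 0 counts.

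Within the first protocol fewer of these genes were called. C6FAE against MEF had 4 of 32 genes higher (Ppargc1a, Acot1, Hadh and Bdh1) and 4 lower (Acot2, Decr1, Acaa1b and Scp2), against 15.6% higher and 14.7% lower of 16535 genes tested, with a median of -0.01 beside 0.02. C6F(L) against MEF had 7 higher (Ppara, Ppargc1a, Acot1, Cpt1c, Acaa2, Eci2 and Bdh1) and 1 lower (Acot2), against 10.6% and 12.4%, with a median of 0.17 beside 0.01. C6FAE-C6F(L) against MEF had 8 higher (Ppara, Fabp1, Acsl1, Acot1, Echs1, Acaa2, Acox2 and Bdh1) and 3 lower (Acot2, Decr1 and Acaa1b), against 18.2% and 19.3%, with a median of 0.21 beside 0.04. Without C6FAE-C6F(L) replicate 4, Fabp1 no longer passed the filter in the comparison with MEF. As shares of the members these are 12.5% higher and 12.5% lower in C6FAE, 21.9% and 3.12% in C6F(L), and 25.0% and 9.38% in C6FAE-C6F(L). The first pair lies near the share of all genes, and in the other groups the higher share lies above it and the lower share below it. The higher share in C6FAE-C6F(L) includes Fabp1 and Acox2, with 60 and 205 counts there and at most 4 in MEF, C6FAE or C6F(L). They passed the filter only through C6FAE-C6F(L) and could not have been called lower in it. That share therefore cannot be read as a trait of the members. These shares rest on few genes. On leaving out single libraries, the higher calls of Ppargc1a, Acaa2 and Eci2 in C6F(L) and of Ppara and Echs1 in C6FAE-C6F(L) were lost. The lower calls of Acaa1b in C6FAE and C6FAE-C6F(L) were lost likewise.

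Against pHeps, C6FAE-C6F(L) had 2 genes higher (Cpt1c and Bdh1) and 11 lower, where 26.1% of all genes were called higher and 20.8% lower, and the members' median was -0.51 beside 0.16. The 11 were Ppara, Fabp1, Acadm, Acads, Decr1, Etfdh, Acox2, Ehhadh, Acaa1b, Cat and Pex11a, of which 5 are peroxisomal. Without replicate 4 of C6FAE-C6F(L), Acsl1 was higher (1.13 in place of 0.83) and Acadl lower (-1.06 in place of -0.95), while the calls of Cpt1c and Fabp1 were lost. C6F5UE-C6F(L)V against C6FAE-C6F(L) had 12 higher and 2 lower (Hadha and Bdh1), against 19.7% and 22.8%, with a median of 0.94 beside -0.07. The 12 were Ppargc1a, Fabp1, Acot1, Acadm, Eci1, Eci2, Decr1, Acox2, Ehhadh, Acaa1b, Cat and Pex11a. Without replicate 4 of C6FAE-C6F(L) that comparison gave 15 higher and 1 lower, with Cpt1c (1.16), Acads (1.09) and Hsd17b4 (1.06) added and Hadha lost. Here too libraries of different count tables were set side by side, so table and group cannot be told apart.

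NSF-CiHeps share the protocol of C6F5UE-C6F(L)V and differ from them in the starting fibroblast. They are also the only group in their count table, so in each of their comparisons table and group cannot be told apart. They had 11 genes higher and 2 lower (Ppara and Acot2) than MEF, against 17.1% and 22.1% of all genes, with a median of 0.79 beside 0.00. The 11 were Ppargc1a, Fabp1, Acot1, Acads, Hadh, Echs1, Acaa2, Acox2, Cat, Pex11a and Bdh1. On leaving out single libraries, Acadm, Acadl, Eci1 and Acaa1b also passed as higher and Decr1 as lower. MEF are not the starting cells of NSF-CiHeps, so these counts do not measure a change under the protocol. Set beside C6F5UE-C6F(L)V, NSF-CiHeps had 4 genes higher (Ppargc1a, Cpt1a, Hadha and Bdh1) and 7 lower (Ppara, Fabp1, Acsl1, Acadm, Eci2, Acox2 and Ehhadh), against 12.3% and 16.2%, with a median of -0.26 beside 0.00. Against pHeps 4 were higher (Ppargc1a, Acot1, Cpt1c and Bdh1) and 5 lower (Ppara, Acsl1, Etfdh, Acox2 and Ehhadh), against 17.4% and 18.1%, with a median of -0.05 beside 0.00. Without NSF-CiHeps replicate 2 the count of lower genes against pHeps was 8, with Acadm, Decr1, Acaa1b and Cat added and Acsl1 lost.

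Of the regulators, Ppara encodes PPAR-alpha. Its level was 17.7 and 20.0 CPM in the pHeps libraries, 8.10, 7.38 and 8.12 in C6F(L) and 9.36, 5.57 and 6.18 in C6F5UE-C6F(L)V. In C6FAE-C6F(L) the 4 libraries held 7.19, 1.95, 0.928 and 4.00 CPM. MEF held 1.51, 1.28 and 0.840 CPM, C6FAE 1.61, 1.67 and 1.17, and NSF-CiHeps 0.233, 0.263 and 0.311. Thus pHeps lay above every other library, all NSF-CiHeps libraries lay below every other, and C6F(L) and C6F5UE-C6F(L)V overlapped. Ppara rose in C6F(L) against MEF by 2.69 on the log2 scale (SE 0.57, edgeR adjusted p = 0.00266) and in C6F5UE-C6F(L)V against MEF by 2.53 (SE 0.50, adjusted p = 2.1e-04). It was lower in C6F5UE-C6F(L)V than in pHeps by a log2 fold change of -1.42 (SE 0.26, edgeR adjusted p = 4.3e-04). NSF-CiHeps were below C6F5UE-C6F(L)V by a log2 fold change of -4.66 (SE 0.60, edgeR adjusted p = 5.6e-06), and below MEF by -2.12 (SE 0.64, adjusted p = 0.00817). These values rest on few reads, with 10 counts of Ppara over all NSF-CiHeps libraries and 42 over MEF. With only NSF-CiHeps and MEF fitted, 1 of the 2 members called lower there, Ppara and Acot2, remained. The call of C6FAE-C6F(L) above MEF (1.55, SE 0.55, edgeR adjusted p = 0.0272) was lost without MEF replicate 2, without MEF replicate 3, or without C6FAE-C6F(L) replicate 1, where the log2 fold change was 0.94 (adjusted p = 0.0922).

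Ppargc1a, the coactivator PGC-1 alpha that induces mitochondrial genes, followed another order. Its level was 14.5, 18.0 and 27.3 CPM in NSF-CiHeps, 13.7, 15.7 and 11.9 in C6FAE and 6.55, 7.55 and 5.56 in C6F5UE-C6F(L)V. C6F(L) held 4.39, 3.31 and 3.93 CPM, while all MEF, C6FAE-C6F(L) and pHeps libraries lay between 1.07 and 3.32. NSF-CiHeps and C6FAE overlapped, both lay above all other groups, and pHeps, with the highest Ppara, overlapped with MEF. Ppargc1a rose in C6FAE against MEF by 3.14 (SE 0.37, edgeR adjusted p = 2.1e-05) and fell from C6FAE to C6FAE-C6F(L), with a log2 fold change of -2.52 (SE 0.32, adjusted p = 3.0e-05). It was higher in C6F5UE-C6F(L)V than in pHeps by 1.60 (SE 0.40, edgeR adjusted p = 0.00408). The rise in C6F(L) against MEF (1.31, SE 0.37, edgeR adjusted p = 0.0123) was lost without MEF replicate 2 (1.19, adjusted p = 0.0513).

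Fabp1 encodes the liver fatty acid binding protein, an abundant cytosolic carrier of fatty acids in hepatocytes and also in enterocytes. It had 0 counts in all MEF and C6F(L) libraries and 4 counts in C6FAE, all in replicate 3. C6FAE-C6F(L) held 3.05, 0.195, 1.11 and 1.04 CPM, NSF-CiHeps 2.64, 5.35 and 0, and pHeps 8.77 and 4.90. C6F5UE-C6F(L)V held 57.8, 43.1 and 81.3 CPM and overlapped with no other group. With 3 counts over the MEF group taken as the limit that 0 counts allow, Fabp1 was at least 698-fold higher in C6F5UE-C6F(L)V, at least 79.1-fold higher in pHeps and at least 16.0-fold higher in C6FAE-C6F(L). These bounds move with the depth behind the 0 counts: without MEF replicate 2 they were 464, 52.6 and 10.6, without MEF replicate 3 they were 459, 52.1 and 10.5, and without C6FAE-C6F(L) replicate 1 the last was 9.29. It was higher in C6F5UE-C6F(L)V than in pHeps by 3.14 on the log2 scale (SE 0.30, edgeR adjusted p = 1.5e-06). The bound against MEF in NSF-CiHeps was 29.7-fold, or 15.3-fold without replicate 2 of that group, 45.5-fold without replicate 3, the library at 0, and 19.8-fold and 19.6-fold without MEF replicates 2 and 3. That C6FAE-C6F(L) was lower than pHeps (-2.32, SE 0.92, edgeR adjusted p = 0.0389) was no longer called after leaving out either pHeps library or any of C6FAE-C6F(L) replicates 2, 3 and 4, and was -3.09 without replicate 1. The call above C6FAE (3.50, edgeR adjusted p = 0.0358) was lost without C6FAE replicate 1 or 2, and without C6FAE replicate 3, its only library with counts, the fitted value was 6.95, which is no bound. On leaving out C6FAE-C6F(L) replicate 1, 3 or 4, Fabp1 no longer passed the filter in the comparisons of that group with MEF, C6FAE and C6F(L). The 6 intestine and stomach markers were all detected in C6F5UE-C6F(L)V, with a sum of 450.0 to 455 CPM, and 4 in pHeps, with a sum of 10.6 to 12.4 and Cdx2 and Gkn1 at 0. On that list Fabp2, the intestinal form, averaged 0.576 ± 0.320 CPM in C6F5UE-C6F(L)V and 2.55 ± 0.806 in pHeps. The part of these markers in the Fabp1 result was not tested.

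The Fabp1 promoter is shown because Fabp1 is a PPAR-alpha target in mouse liver and the member that differed most between C6F5UE-C6F(L)V and pHeps. The window runs from 250 bases before to 50 after the start given by RefSeq, on GRCm38.p6 at chr6:71199629-71199928, plus strand; the gene itself spans chr6:71199827-71205023 in the deposited tables. Capitals mark letters that match a PPAR-type direct repeat, AGGNCANAGGNCA, read on the other strand from base -67, and a single unit of such a repeat, AGGTCA, also on the other strand, at base -9.
Fabp1 promoter: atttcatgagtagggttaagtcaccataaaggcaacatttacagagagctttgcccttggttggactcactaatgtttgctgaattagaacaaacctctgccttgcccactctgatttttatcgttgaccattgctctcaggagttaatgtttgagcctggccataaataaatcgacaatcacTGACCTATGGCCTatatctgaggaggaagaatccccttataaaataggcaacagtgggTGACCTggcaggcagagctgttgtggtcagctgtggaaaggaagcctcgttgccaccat
Searched on both strands, the repeat occurred in 0.381% of 32851 RefSeq promoter windows and in 1 of the 29 members that have one, Fabp1. The stricter repeat AGGTCANAGGTCA occurred in 0.0396% of the windows and in 0 members. The single unit AGGTCA, which the longer run of capitals also contains, occurred in 16.3% of the windows and in 8 members, Acadm, Acadvl, Cat, Cpt1a, Cpt1c, Echs1, Fabp1 and Scp2. These matches are of letters and say nothing on binding in these cells.

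Acsl1, the acyl-CoA synthetase that activates long-chain fatty acids in liver, held 75.5, 86.9, 127 and 23.3 CPM in C6FAE-C6F(L), replicate 4 being the low library. C6F5UE-C6F(L)V held 71.8, 64.1 and 72.4 CPM and pHeps 46.9 and 41.2. MEF held 26.3, 35.6 and 27.2 CPM, and all C6FAE, C6F(L) and NSF-CiHeps libraries lay between 16.4 and 24.7. It rose from C6FAE to C6FAE-C6F(L) by 2.01 (SE 0.41, edgeR adjusted p = 0.00113) and was higher in C6F5UE-C6F(L)V than in MEF by 1.22 (SE 0.35, adjusted p = 0.00444). NSF-CiHeps were lower than C6F5UE-C6F(L)V by a log2 fold change of -1.69 (SE 0.35, edgeR adjusted p = 7.0e-04). Their call below pHeps (-1.03, SE 0.38, edgeR adjusted p = 0.03) was lost on leaving out NSF-CiHeps replicate 2 or 3 or either pHeps library.

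Acot1 and Acot2 are neighbouring acyl-CoA thioesterase genes on chromosome 12, the first cytosolic and the second mitochondrial. They moved in opposite directions. Acot1 held 5.76, 4.88 and 3.53 CPM in MEF and 55.6, 64.4 and 54.7 in C6FAE, while Acot2 held 23.9, 25.3 and 23.7 CPM in MEF and 4.28, 5.92 and 4.85 in C6FAE. All other groups lay on the C6FAE side for both genes: Acot1 was at 15.8 CPM or more in every library outside MEF, and Acot2 at 10.6 CPM or less. Acot1 rose in C6FAE against MEF by 3.63 (SE 0.22, edgeR adjusted p = 1.6e-07) and Acot2 fell, with a log2 fold change of -2.27 (SE 0.28, adjusted p = 3.8e-05). Per kilobase of gene length, Acot1 made up 9.79% ± 2.09 of the pair in MEF. Its share was 86.7% ± 1.06 in C6FAE, 81.5% ± 2.15 in NSF-CiHeps, 82.8% ± 6.48 in C6F5UE-C6F(L)V, 73.2% ± 8.54 in C6F(L), 68.3% ± 8.30 in C6FAE-C6F(L) and 65.9% ± 3.68 in pHeps. The summed level of the pair moved over a smaller range, from 7.46 ± 1.25 CPM per kilobase in C6FAE-C6F(L) to 18.7 ± 4.67 in NSF-CiHeps. That Acot1 was higher in NSF-CiHeps than in pHeps (1.11, SE 0.26, edgeR adjusted p = 0.00169) was lost without NSF-CiHeps replicate 3 (1.00) or pHeps replicate 2 (0.89).

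Because near-identical copies can exchange reads, a stretch of each coding sequence is shown, on GRCm38 from the annotation, chromosome 12, plus strand, with the differing bases in capitals. The coding sequences were 95.2% identical over 1239 aligned bases, and 16.5% of the 100-base windows of Acot1 occurred unchanged in Acot2. The stretches, bases 823 to 882 of Acot1 and 946 to 1005 of Acot2, hold 13 differences over 60 bases.
Acot1 coding: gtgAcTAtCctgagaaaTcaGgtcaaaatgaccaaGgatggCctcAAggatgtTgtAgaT
Acot2 coding: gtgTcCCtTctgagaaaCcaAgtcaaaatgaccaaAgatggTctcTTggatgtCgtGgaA
The counting tool's treatment of reads that match both copies is not given in the sources used here, so the split between them is uncertain to that extent.

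The liver form (Cpt1a) and the muscle form (Cpt1b) of Cpt1 catalyse the step that commits acyl groups to mitochondria. Cpt1c encodes a related form known from brain, to which that step is not ascribed here. Cpt1a held 124, 129 and 129.5 CPM in MEF, 126, 129 and 133 in C6F(L), 109, 129 and 139 in NSF-CiHeps, and 122 and 144 in pHeps. C6F5UE-C6F(L)V held 52.8, 53.6 and 67.3 CPM, below all of these. C6FAE-C6F(L) ranged from 56.4 CPM in replicate 3 to 154 in replicate 4. Cpt1a was lower in C6F5UE-C6F(L)V than in pHeps by a log2 fold change of -1.21 (SE 0.12, edgeR adjusted p = 2.9e-06) and lower than in MEF by -1.14 (SE 0.23, adjusted p = 3.0e-04). In pHeps against MEF its log2 fold change was 0.06 (SE 0.26), which did not pass.

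Cpt1c held 125, 131 and 133 CPM in C6F(L), 80.0 to 104 in NSF-CiHeps, 76.2, 67.7 and 80.4 in C6F5UE-C6F(L)V, 57.9, 52.6 and 54.0 in MEF, and 22.1 and 23.8 in pHeps, which was the lowest group. In C6FAE-C6F(L) replicates 1 to 3 held 33.3, 35.6 and 32.0 CPM and replicate 4 held 83.8. It was higher in C6F5UE-C6F(L)V than in pHeps by 1.70 (SE 0.13, edgeR adjusted p = 1.9e-07) and lower in pHeps than in MEF, with a log2 fold change of -1.25 (SE 0.30, adjusted p = 0.00136). The log2 fold change of 1.01 in C6FAE-C6F(L) against pHeps (edgeR adjusted p = 0.00538) was 0.55 without C6FAE-C6F(L) replicate 4 and 0.96 without pHeps replicate 1, both under the threshold of size. Against C6FAE it was -0.74 (not called) with replicate 4 and -1.19 without it (edgeR adjusted p = 3.0e-08). Per kilobase of gene length, Cpt1a made up 88.1% ± 0.892 of the 3 genes in pHeps, 75.1% ± 1.30 in MEF and 50.0% ± 2.36 in C6F5UE-C6F(L)V, where Cpt1c made up 49.7% ± 2.45. Cpt1b was at most 0.618 CPM in any library and at most 0.607% of the 3, and 81.4% of its exon bases are shared with the gene Gm44502 on the same strand. Exons of Cpt1c overlap an antisense gene over 6.53% of their bases.

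Cpt2, which rebuilds acyl-CoA inside mitochondria, and Slc25a20, the carnitine-acylcarnitine carrier, were called in none of the 13 comparisons between groups. Cpt2 averaged 34.0 ± 4.35 CPM in C6F5UE-C6F(L)V and 66.0 ± 13.2 in NSF-CiHeps, its lowest and highest means (log2 fold change 0.95, SE 0.16, edgeR adjusted p = 9.7e-05, under the threshold of size). It passed on leaving out C6F5UE-C6F(L)V replicate 1 or 2 (1.07 and 1.01) or NSF-CiHeps replicate 1 or 3 (1.11 and 1.03). In NSF-CiHeps against pHeps, Cpt2 passed without pHeps replicate 1 (1.06 in place of 0.76). Slc25a20 ranged from 20.0 ± 5.46 CPM in C6FAE-C6F(L) to 46.0 ± 8.84 in NSF-CiHeps. Against pHeps, Slc25a20 passed in NSF-CiHeps without NSF-CiHeps replicate 1 (1.01 in place of 0.89).

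**Figure D3:**
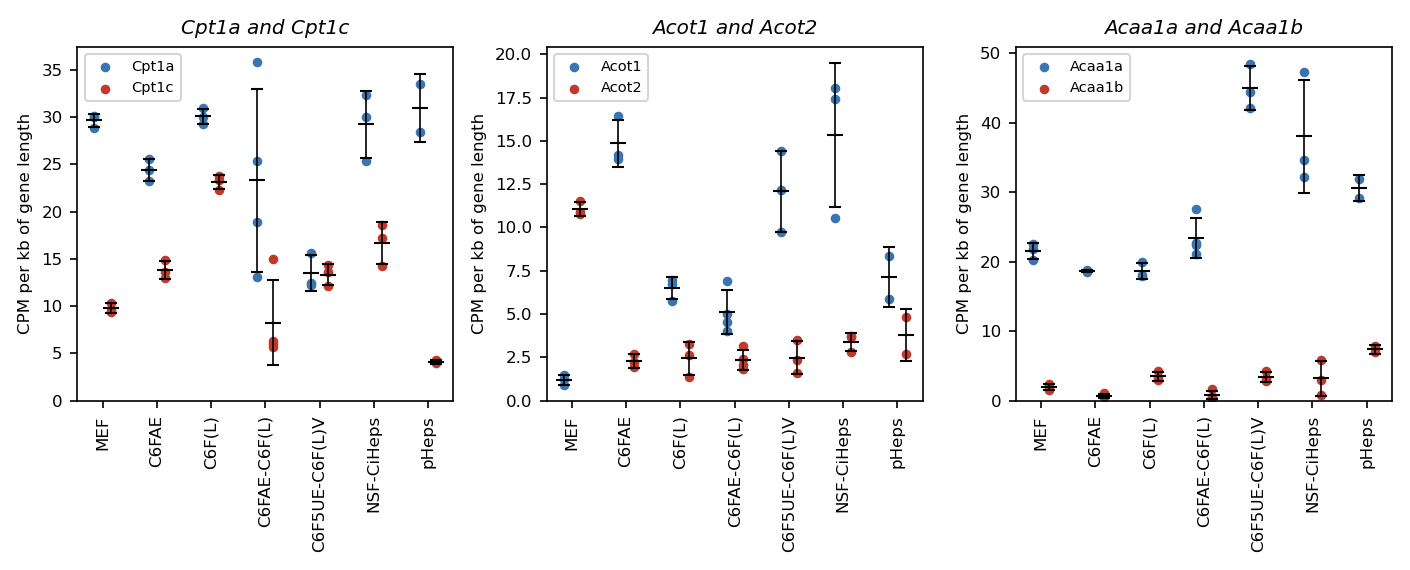
Level per kilobase of gene length for 3 sets of related genes in each library (points), with mean and SD per group. Cpt1a and Cpt1c meet in C6F5UE-C6F(L)V, Acot2 exceeds Acot1 in MEF and lies below it in every other group, and Acaa1a exceeds Acaa1b throughout.

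In the mitochondrial spiral the chain-length-specific dehydrogenases differed from one another. Acadm, the medium-chain enzyme, held 282, 235 and 239 CPM in C6F5UE-C6F(L)V, 204 and 199 in pHeps, 85.6, 155 and 114 in NSF-CiHeps, and 49.3 to 89.2 in all 13 other libraries. No other group overlapped with C6F5UE-C6F(L)V or with pHeps. Acadm rose in C6F5UE-C6F(L)V against MEF by 2.08 (SE 0.18, edgeR adjusted p = 1.4e-08) and against C6FAE-C6F(L) by 1.75 (SE 0.16, adjusted p = 5.2e-08). It was lower in NSF-CiHeps than in C6F5UE-C6F(L)V by a log2 fold change of -1.09 (SE 0.17, edgeR adjusted p = 5.5e-05), a call lost without C6F5UE-C6F(L)V replicate 1 (-0.97) or NSF-CiHeps replicate 1 (-0.86). Acadl, the long-chain enzyme, held 63.9 to 67.9 CPM in MEF, 137, 150.3 and 139 in C6F5UE-C6F(L)V and 176 and 172 in pHeps, and was called higher than MEF in both (1.10, SE 0.12, and 1.39, SE 0.13).

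Acads, the short-chain enzyme, stood at 34.0 to 37.9 CPM in MEF, 30.9 to 36.4 in C6F(L) and 26.3 to 44.7 in C6FAE-C6F(L). It was at 61.3 to 65.8 CPM in C6FAE, 60.3 to 69.7 in C6F5UE-C6F(L)V, 77.8 to 117 in NSF-CiHeps and 89.1 and 104 in pHeps. It was called against MEF in pHeps (1.43, SE 0.18, edgeR adjusted p = 1.6e-06) and NSF-CiHeps (1.45, SE 0.17, adjusted p = 7.7e-07). In C6FAE and C6F5UE-C6F(L)V it had log2 fold changes of 0.84 and 0.88, under the threshold of size. Acadvl, the very long-chain enzyme, was called in none of the 13 comparisons, with means from 52.1 ± 4.46 CPM in MEF to 84.3 ± 8.59 in C6F(L). Of its exon bases, 42.9% overlap Dvl2 on the opposite strand, and since the strand setting of the counting is not given in the sources used here, reads of the neighbours cannot be told apart.

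Hadha and Hadhb encode the alpha and beta subunits of the mitochondrial trifunctional protein. Hadha held 152, 152 and 147 CPM in MEF, 154, 155 and 166 in C6F(L), 63.6, 70.3 and 68.6 in C6F5UE-C6F(L)V, and 77.8 and 73.6 in pHeps. Every C6F5UE-C6F(L)V and pHeps library lay below every library of the other 5 groups. Hadha fell in C6F5UE-C6F(L)V against MEF by a log2 fold change of -1.15 (SE 0.11, edgeR adjusted p = 4.8e-08), and in pHeps against MEF it had -0.99 (SE 0.13), just under the threshold of size and past it without MEF replicate 1 or 3 or pHeps replicate 1 (-1.04 for the last). For Hadhb the means ran from 50.1 ± 5.38 CPM in C6FAE to 85.5 ± 11.0 in NSF-CiHeps, it was called in none of the 13 comparisons, and in C6F5UE-C6F(L)V against MEF its log2 fold change was 0.38 (SE 0.13). The call of Hadha lower in C6F5UE-C6F(L)V than in C6FAE-C6F(L) (-1.07, edgeR adjusted p = 1.1e-07) was lost without C6FAE-C6F(L) replicate 4, with a log2 fold change of -0.94.

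Echs1, the enoyl-CoA hydratase, held 52.4 to 54.5 CPM in MEF, 141, 114 and 132 in C6F5UE-C6F(L)V, and 153 and 155 in pHeps. In C6FAE-C6F(L) it held 122, 128 and 139 CPM in replicates 1 to 3 and 58.8 in replicate 4. It was called higher than MEF in C6F5UE-C6F(L)V (1.28, SE 0.20), pHeps (1.53, SE 0.22), NSF-CiHeps (1.05, SE 0.20) and C6FAE-C6F(L) (1.08, SE 0.22, edgeR adjusted p = 0.0011). The last call was lost without C6FAE-C6F(L) replicate 2 or 3 (0.99 and 0.95). Hadh, the short-chain hydroxyacyl-CoA dehydrogenase, was called only in C6FAE (1.09, SE 0.13) and NSF-CiHeps (1.15, SE 0.15), both against MEF, of the 13 comparisons. Acaa2, the mitochondrial thiolase, held 40.4 to 44.5 CPM in MEF, 184, 121 and 158 in C6F5UE-C6F(L)V, and 63.3 and 65.8 in pHeps. It was higher in C6F5UE-C6F(L)V than in pHeps by 1.25 (SE 0.15, edgeR adjusted p = 1.3e-05), the only gene of the 9 in the spiral called between these groups. Its call in C6F(L) against MEF (1.02) was lost without MEF replicate 1 (0.97) or C6F(L) replicate 1 (1.00), below the threshold before rounding.

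Eci1 and Eci2 are isomerases that prepare unsaturated chains, Eci2 also in peroxisomes. Eci1 held 23.1 to 23.8 CPM in MEF, 65.4, 56.3 and 68.8 in C6F5UE-C6F(L)V and 45.4 and 44.3 in pHeps, and rose in C6F5UE-C6F(L)V against MEF by 1.43 (SE 0.16, edgeR adjusted p = 3.6e-07). Eci2 held 46.0 to 52.2 CPM in MEF, 98.9 to 103 in C6F(L), 38.4 to 59.0 in C6FAE-C6F(L) and 158, 106 and 138 in C6F5UE-C6F(L)V. It was lower in C6FAE-C6F(L) than in C6F(L) by a log2 fold change of -1.02 (SE 0.13, edgeR adjusted p = 2.8e-05), a call lost without C6FAE-C6F(L) replicate 2 or 3 (-0.94 for the latter). Its rise in C6F(L) against MEF (1.01, SE 0.14) was lost without MEF replicate 2 (0.96) or C6F(L) replicate 2 (1.00).

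Decr1, the dienoyl-CoA reductase, was at 45.1 to 51.0 CPM in MEF and fell to 16.7 to 19.9 in C6FAE, a log2 fold change of -1.38 (SE 0.37, edgeR adjusted p = 0.00726). C6FAE-C6F(L) held 16.4, 6.73, 9.74 and 28.0 CPM, replicate 4 being the highest, and was lower than MEF by -1.64 (SE 0.34, edgeR adjusted p = 0.00113). Its call below C6F(L) (-1.12) was lost without C6FAE-C6F(L) replicate 2 (-0.90) or 3 (-0.98). C6F5UE-C6F(L)V, at 39.3 to 49.3 CPM, overlapped with MEF and pHeps. Etfdh, which passes electrons from the dehydrogenases to ubiquinone, held 93.6 to 111 CPM in C6F5UE-C6F(L)V, 108 and 117 in pHeps and 41.9 to 66.3 in all other libraries, and was lower than pHeps in C6FAE-C6F(L) (-1.09, SE 0.11) and NSF-CiHeps (-1.07, SE 0.12). The first of these calls was lost without C6FAE-C6F(L) replicate 3, just under the threshold of size.

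Among the 8 peroxisomal genes, 5 rose in C6F5UE-C6F(L)V against MEF, beside 25.7% higher and 26.4% lower of all genes, and 5 in pHeps against MEF, beside 24.4% and 27.2%; 0 fell in either. Their summed level was 1109.7 ± 81.1 CPM in pHeps and 1100.0 ± 71.6 in C6F5UE-C6F(L)V. It was 721 ± 121 CPM in NSF-CiHeps, 494 ± 3.60 in MEF, 452 ± 38.1 in C6FAE-C6F(L), 434 ± 14.0 in C6F(L) and 337 ± 5.13 in C6FAE. The sum was thus lowest in C6FAE, whose 3 libraries, at 331 to 341 CPM, lay below all others.

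Acox2 is the oxidase of branched chains and bile acid precursors. MEF had 4 counts, all in replicate 2, C6FAE 4 counts, all in replicate 3, and C6F(L) 2 counts. C6FAE-C6F(L) held 10.4, 1.17, 4.64 and 2.35 CPM and NSF-CiHeps 22.1, 30.0 and 4.19. C6F5UE-C6F(L)V held 198, 170.0 and 169 CPM and pHeps 184 and 207, so these 2 groups overlapped and lay far above the rest. The log2 fold change between them was -0.13 (SE 0.10, edgeR adjusted p = 0.293). Against MEF the log2 fold change was 10.48 (SE 1.01, edgeR adjusted p = 5.7e-08) in C6F5UE-C6F(L)V and 10.60 (SE 1.03, adjusted p = 7.5e-08) in pHeps. Without MEF replicate 2 the fitted values were 13.95 and 14.09, which are no bounds because the other MEF libraries held 0 counts. C6FAE-C6F(L) exceeded C6F(L) by a ratio of 74.6 (exact 95% interval 20.4 to 620.1, counting error only), or 43.5 (11.7 to 364) without C6FAE-C6F(L) replicate 1. Without C6F(L) replicate 1, which held both C6F(L) counts, it was at least 33.7-fold higher. The groups high in Acox2 were those with the highest summed hepatocyte markers, whose part in the result was not tested.

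Cat, the catalase of peroxisomes, held 103 to 112 CPM in MEF, 92.9 to 98.7 in C6FAE, 150.4 to 166 in C6F(L) and 123 to 141 in C6FAE-C6F(L). It held 191 to 268 CPM in NSF-CiHeps, 262 to 315 in C6F5UE-C6F(L)V and 442 and 512 in pHeps, the highest group with no overlap. It rose against MEF by 1.44 (SE 0.12, edgeR adjusted p = 8.5e-09) in C6F5UE-C6F(L)V and by 2.14 (SE 0.13, adjusted p = 2.9e-10) in pHeps. Pex11a, which promotes peroxisome division and is a PPAR-alpha target in mouse, held 4.79 to 8.51 CPM in MEF, 35.3 to 42.4 in C6F5UE-C6F(L)V and 27.9 and 28.8 in pHeps. It rose against MEF by 2.49 (SE 0.23, edgeR adjusted p = 3.1e-08) in C6F5UE-C6F(L)V and by 2.05 (SE 0.24, adjusted p = 8.3e-07) in pHeps. Ehhadh, the L-bifunctional enzyme and another PPAR-alpha target, held 14.5 to 18.0 CPM in C6F5UE-C6F(L)V, 22.1 and 24.0 in pHeps and 3.42 to 10.8 in all other libraries, and rose against MEF by 1.45 (SE 0.34, edgeR adjusted p = 9.9e-04) and 1.91 (SE 0.37, adjusted p = 1.8e-04).

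Scp2, whose longer product is a peroxisomal thiolase, fell from 160.4 to 166 CPM in MEF to 68.7 to 70.9 in C6FAE, a log2 fold change of -1.22 (SE 0.09, edgeR adjusted p = 7.5e-07). C6F5UE-C6F(L)V held 224 to 266 CPM, above every other library, and C6FAE-C6F(L) 114 to 147, between C6FAE and MEF. Hsd17b4, the D-bifunctional protein, was called in none of the 13 comparisons, with means from 67.4 ± 17.6 CPM in C6FAE-C6F(L) to 124 ± 9.87 in C6F5UE-C6F(L)V. Acaa1a, the main peroxisomal thiolase, held 89.5 to 99.4 CPM in MEF and 186 to 214 in C6F5UE-C6F(L)V. It rose there by 1.06 (SE 0.13, edgeR adjusted p = 8.8e-07). The call was lost without MEF replicate 2 (1.00, below the threshold before rounding).

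Acaa1b, a second copy of that thiolase gene in the mouse, was low in all libraries. pHeps held 13.6 and 15.3 CPM, C6F(L) 5.76, 8.23 and 6.39, C6F5UE-C6F(L)V 6.38, 5.57 and 8.34, MEF 4.70, 3.34 and 3.11, and C6FAE 0.969, 2.08 and 0.919. NSF-CiHeps held 5.74, 11.5 and 1.48 CPM, and C6FAE-C6F(L) 1.08, 0.781, 1.02 and 3.39. It was higher in pHeps than in all other libraries, and rose in pHeps against MEF by 1.96 (SE 0.60, edgeR adjusted p = 0.00793). Its calls below MEF in C6FAE (-1.48, edgeR adjusted p = 0.028) and C6FAE-C6F(L) (-1.22, adjusted p = 0.0371) were each lost on leaving out single libraries, the first without MEF replicate 1 or C6FAE replicate 1 or 3, the second without any 1 of the MEF libraries or of C6FAE-C6F(L) replicates 1 to 3. Replicate 4 set the size of the values in C6FAE-C6F(L): without it they were -1.93 against MEF, -2.80 in place of -2.09 against C6F(L) and -3.90 in place of -3.19 against pHeps. Its call below pHeps in C6F5UE-C6F(L)V (-1.10, edgeR adjusted p = 0.00306) was lost without C6F5UE-C6F(L)V replicate 2 (-0.98). The stretches below, bases 259 to 318 of both coding sequences on GRCm38 chromosome 9, show how the copies differ, with 11 differing bases in capitals; Acaa1a lies on the plus strand and Acaa1b on the minus strand.
Acaa1a coding: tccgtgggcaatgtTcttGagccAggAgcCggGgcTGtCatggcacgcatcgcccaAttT
Acaa1b coding: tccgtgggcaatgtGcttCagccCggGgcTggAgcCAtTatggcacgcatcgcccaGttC
The coding sequences were 96.5% identical over 1275 bases, and 21.6% of the 100-base windows of Acaa1a occurred unchanged in Acaa1b. Per kilobase, Acaa1b made up 19.4% ± 0.273 of the pair in pHeps, 15.7% ± 2.84 in C6F(L), 7.07% ± 1.02 in C6F5UE-C6F(L)V and 3.38% ± 2.81 in C6FAE-C6F(L).

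**Figure D4:**
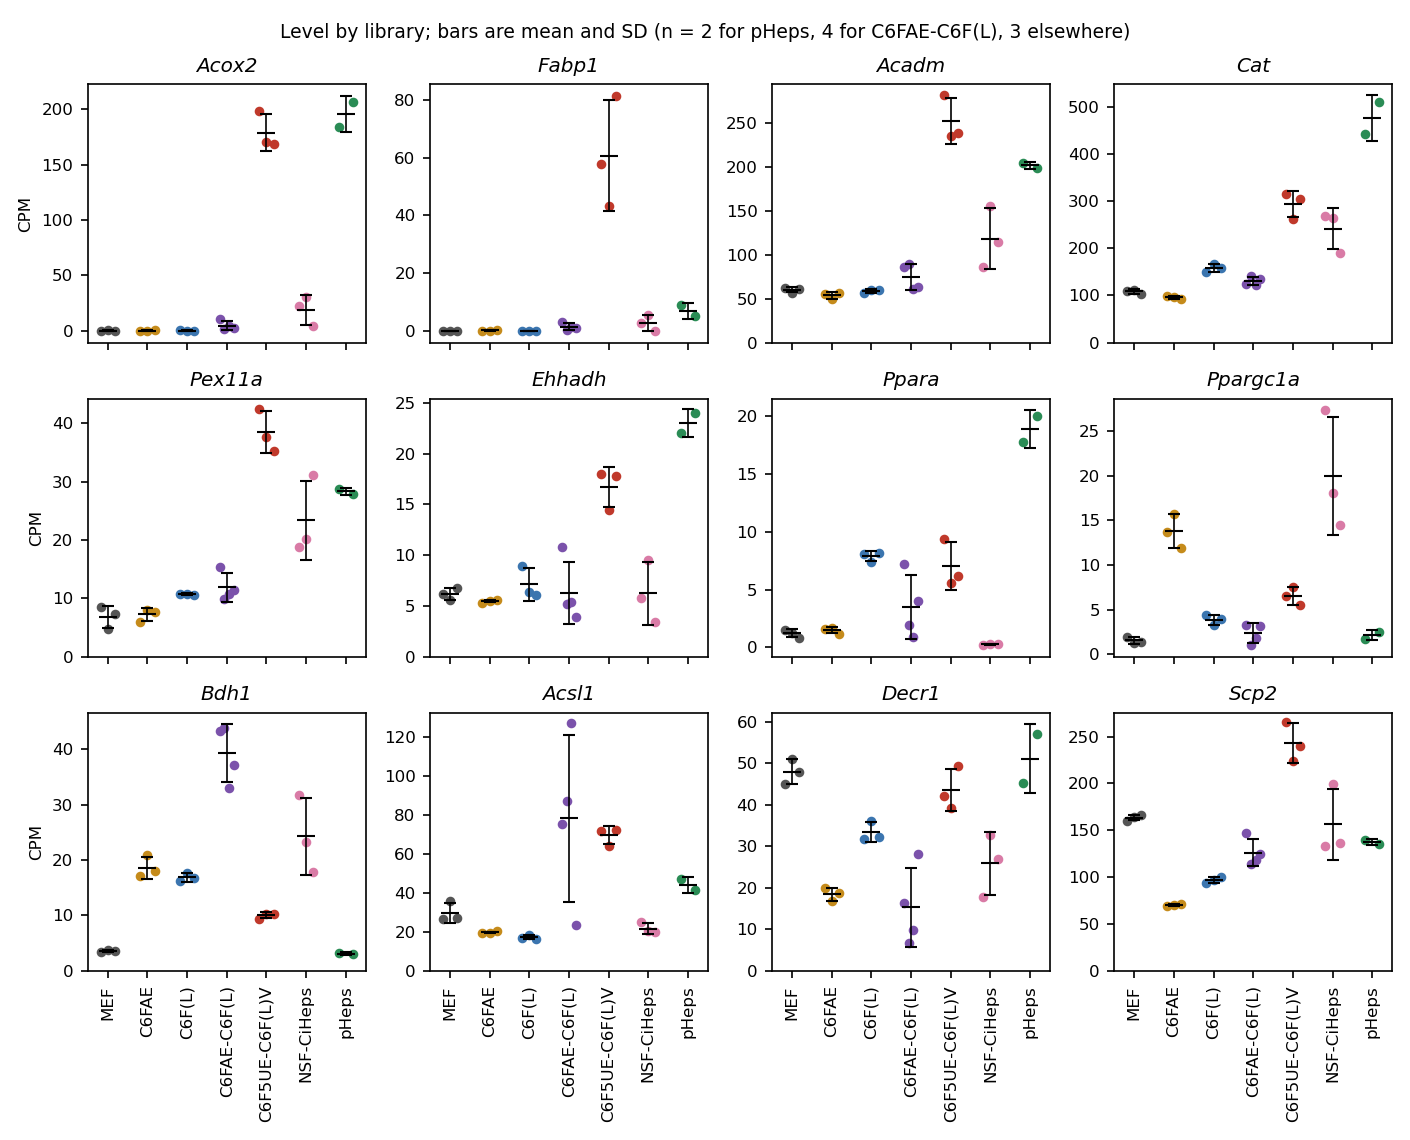
Level in CPM of 12 of the genes in each library (points), with mean and SD per group (n = 2 for pHeps, 4 for C6FAE-C6F(L) and 3 elsewhere). Acox2 is at 169 to 207 CPM in C6F5UE-C6F(L)V and pHeps alike, Fabp1 is highest in C6F5UE-C6F(L)V, Ppara and Cat are highest in pHeps, and Bdh1 is highest in C6FAE-C6F(L).

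Bdh1, the mitochondrial dehydrogenase that interconverts acetoacetate and beta-hydroxybutyrate, was the only gene of the list directly on ketone bodies. It held 3.37, 3.68 and 3.61 CPM in MEF and 3.22 and 2.92 in pHeps, its lowest groups. C6F5UE-C6F(L)V held 9.36, 10.3 and 10.3 CPM, C6F(L) 16.1, 17.7 and 16.8, C6FAE 17.0, 20.8 and 18.0, NSF-CiHeps 31.7, 23.2 and 17.9, and C6FAE-C6F(L) 43.3, 43.9, 33 and 37.2 in replicates 1 to 4 (mean 39.4 ± 5.20, n = 4). The hepatocyte libraries thus lay below all induced cells, and C6FAE-C6F(L) lay above every other group. Bdh1 rose in C6FAE-C6F(L) against MEF by 3.48 (SE 0.14, edgeR adjusted p = 5.2e-09) and was higher there than in pHeps by 3.68 (SE 0.23, adjusted p = 4.6e-10). It was lower in C6F5UE-C6F(L)V than in C6FAE-C6F(L) by a log2 fold change of -1.98 (SE 0.17, edgeR adjusted p = 2.2e-08) and higher than in pHeps by 1.69 (SE 0.31, adjusted p = 4.7e-04). Of its exon bases, 13.7% overlap the antisense gene Gm15743, which had 48 counts over all 21 libraries against 4337 of Bdh1.

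The C6F(L) treatment was given to MEF directly and to MEF after C6FAE. From C6FAE to C6FAE-C6F(L), 4 of 32 genes rose (Fabp1, Acsl1, Acox2 and Bdh1) and 2 fell (Ppargc1a and Acot1), where 16.1% of all genes were called higher and 17.6% lower, and the median was 0.24 beside 0.03. Without C6FAE-C6F(L) replicate 4, 4 rose and 4 fell: Cpt1c (-1.19) and Acads (-1.03) were added to those that fell, Echs1 (1.10 in place of 0.88) to those that rose, and Fabp1 no longer passed the filter. C6FAE-C6F(L) against C6F(L) had 4 higher (Fabp1, Acsl1, Acox2 and Bdh1) and 4 lower (Cpt1c, Eci2, Decr1 and Acaa1b), against 15.5% and 16.5%, with a median of -0.15 beside 0.01; without C6FAE-C6F(L) replicate 2 or 3, 2 were lower. Without replicate 4, Echs1 was also higher than in C6F(L), at 1.09 in place of 0.89, and Fabp1 no longer passed the filter. In both comparisons Fabp1 and Acox2 passed the filter only through C6FAE-C6F(L), so they could not have been called lower there. The difference between the steps was tested as an interaction, which was added after the values had been seen. It passed for 9 members, 3 above 0 and 6 below, against 16.2% and 16.8% of all genes. Without replicate 4, Acadl (-1.02 in place of -0.91) and Acaa1b (-1.32 in place of -0.61) passed as well. Acot1 rose by 2.43 in the step from MEF and fell in the step after C6FAE, with a log2 fold change of -1.53, a difference of -3.96 (SE 0.28, edgeR adjusted p = 5.8e-07). Ppargc1a moved by 1.31 and -2.52, a difference of -3.83 (SE 0.49, edgeR adjusted p = 4.8e-05). The steps were 1.24 and -0.74 for Cpt1c, 1.01 and -0.73 for Eci2 and 0.57 and -0.56 for Hadh, of which 1.24 and 1.01 were called. Acsl1 had -0.80, not called, from MEF and rose by 2.01 after C6FAE. The other 3 genes whose difference passed were Acot2, Scp2 and Bdh1.

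**Figure D5:**
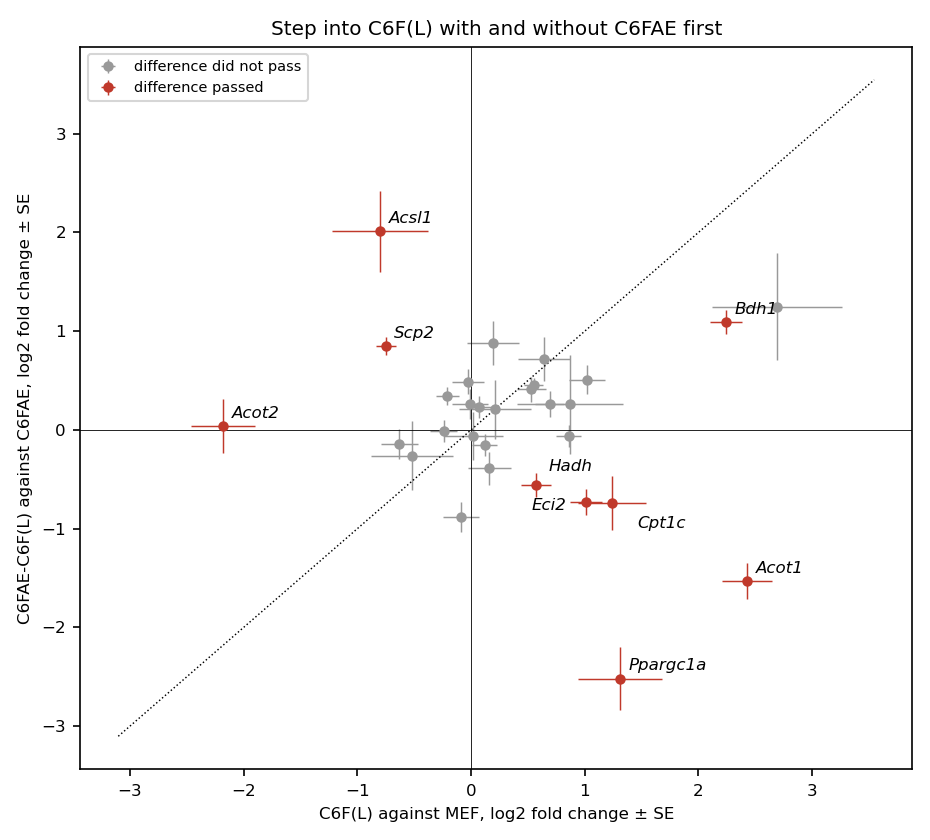
Log2 fold change ± SE of each tested gene from MEF to C6F(L) (horizontal) and from C6FAE to C6FAE-C6F(L) (vertical), with the line of equal change dotted and genes whose difference passed in red. Fabp1 and Acox2 are left out because MEF and C6F(L) held at most 4 counts of them. Ppargc1a and Acot1 lie at the lower right, rising from MEF and falling after C6FAE, and Acsl1 at the upper left.

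Other genes of the pathway were read from 7 lists of 143 genes in all. In C6F5UE-C6F(L)V against MEF, 136 of these were tested, of which 57 rose and 22 fell, and in pHeps against MEF 51 rose and 29 fell, beside the shares of all genes given above for these comparisons. In C6F5UE-C6F(L)V against pHeps, 131 were tested, of which 27 were higher and 21 lower, beside 18.4% and 14.7% of all genes. Among 29 other peroxisomal genes tested, 14 rose and 3 fell in C6F5UE-C6F(L)V against MEF, beside 25.7% and 26.4% of all genes. Slc27a2, an acyl-CoA synthetase and fatty acid transporter of liver, was at 0 in MEF, at 81.0 ± 19.2 CPM in C6F5UE-C6F(L)V and at 33.8 ± 1.95 in pHeps. It was also at 10.2 ± 1.64 CPM in C6F(L), at 1.65 ± 0.995 in C6FAE-C6F(L) and at 0.891 ± 0.393 in NSF-CiHeps. Baat, which joins bile acids to amino acids in peroxisomes, was at 0 in MEF, at 35.3 ± 9.42 CPM in C6F5UE-C6F(L)V and at 16.3 ± 0.791 in pHeps. Of the 18 peroxins and peroxisomal membrane proteins tested, 7 rose and 1 fell, with Pex11g up by 2.98 (SE 0.31) and Pex16 by 2.14 (SE 0.17). Of 27 other mitochondrial oxidation genes, 12 rose and 3 fell, Echdc2 rising by 3.73 (SE 0.16) and Crat, the carnitine acetyltransferase, falling, with a log2 fold change of -1.79 (SE 0.16).

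Among 10 ketone body genes tested, 2 rose and 5 fell in C6F5UE-C6F(L)V against MEF, beside 25.7% and 26.4% of all genes. Oxct1, which lets tissues outside the liver burn ketone bodies, averaged 270.3 ± 11.1 CPM in MEF, 30.7 ± 2.82 in pHeps and 16.4 ± 2.53 in C6F5UE-C6F(L)V, and fell there by a log2 fold change of -4.04 (SE 0.20, edgeR adjusted p = 1.9e-11).

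Among 16 PPAR targets outside oxidation tested, 11 rose and 0 fell in C6F5UE-C6F(L)V against MEF, beside 25.7% and 26.4% of all genes. In C6F5UE-C6F(L)V against pHeps, 9 genes of that list were higher and 2 lower, beside 18.4% and 14.7% of all genes. On that list Cyp4a10, Cyp4a31 and Cyp4a32 had 0 counts in MEF and at most 12 in pHeps. They had 147, 240 and 161 counts in C6F5UE-C6F(L)V. Against pHeps they passed the filter only through C6F5UE-C6F(L)V, and they could not have been called lower in either comparison. These counts of the list therefore cannot be read as a trait of it. Plin4, a lipid droplet coat protein, was higher than in pHeps by 4.13 (SE 0.48, edgeR adjusted p = 1.1e-05) and Plin2, another, was lower, with a log2 fold change of -1.47 (SE 0.11, adjusted p = 1.6e-07). Of 19 related regulators tested against MEF 4 rose and 6 fell, and of 17 uptake and synthetase genes 7 rose and 4 fell. The shares of all genes against MEF were again 25.7% and 26.4%. Pparg, the family member best known from adipocytes, averaged 2.15 ± 0.152 CPM in pHeps, 36.4 ± 11.4 in C6FAE-C6F(L), 46.2 ± 15.1 in NSF-CiHeps and 61.0 ± 1.29 in C6F5UE-C6F(L)V. It was higher in C6F5UE-C6F(L)V than in pHeps by 4.81 (SE 0.18, edgeR adjusted p = 3.3e-10). The 6 adipocyte markers summed to 261 to 306 CPM in C6F5UE-C6F(L)V, 5 being detected and Lep at 0, and to 66.1 to 76.0 in pHeps, where Adipoq, Plin1 and Lep were at 0. Of that sum Fabp4 alone was 272 ± 22.1 CPM in C6F5UE-C6F(L)V, and Adipoq was 0.504 ± 0.447.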

How the data were processed

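Poly-T selected RNA of 21 libraries was read as whole-number counts per gene in 3 deposited tables; alignment with HISAT2 to GRCm38 (mm10) is per the submitters' processing notes, while the counting tool and its use of strand are not stated in these sources. The deposited FPKM tables were not used: of 16 columns 13 followed their own library's counts and 3, all MEF, followed another MEF replicate. Genes were filtered with filterByExpr (minimum count 10, minimum total 15), scaled by TMM and tested with edgeR 4.0.16 (quasi-likelihood, Benjamini-Hochberg over all genes) in R 4.3.3. The 13 libraries of the first 4 groups were fitted together, C6F5UE-C6F(L)V with pHeps, and comparisons across tables over all 21 libraries. The pipeline was tested on simulated data. DESeq2 1.42.0 was an alternative. Every listed gene is named; from each other list, the 2 largest called changes in each direction at 10 CPM or more could be named. Some genes that this rule names are not reported here. Members and lists were chosen with earlier results of these data known.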

Additional observations from a re-analysis of the deposited data

Results flagged for a closer look

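Among 43 values tested for an outlying library in C6FAE-C6F(L), 5 had 1 library far from the other 3, and chance flags about 1 in 20. Replicate 4 was high for Cpt1c (83.8 CPM against 32.0 to 35.6), Acadl (109 against 82.5 to 85.4), Hadha (177 against 126 to 134) and Acaa1b (3.39 against 0.781 to 1.08). Replicate 3 was low for Hadhb, at 51.0 CPM against 71.0 to 73.0. Replicate 4 is also the library with the low ribosomal protein share.

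The C6F(L) step after C6FAE differed from the C6F(L) step from MEF for 9 of 32 genes by edgeR's interaction test. Of the members 9.38% lay above 0 and 18.8% below, beside 16.2% and 16.8% of all genes. The difference was -3.96 on the log2 scale for Acot1, -3.83 for Ppargc1a, -1.98 for Cpt1c, -1.74 for Eci2, -1.15 for Bdh1 and -1.13 for Hadh. It was 2.80 for Acsl1, 2.22 for Acot2 (edgeR adjusted p = 5.5e-04) and 1.60 for Scp2 (edgeR adjusted p = 1.1e-06). For Acot2 the step from MEF was -2.18 and that after C6FAE 0.04; for Scp2 they were -0.75 and 0.85, and for Bdh1 2.24 and 1.09.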

How the results depend on the processing

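Of 143 calls of single genes, 22 were lost under at least 1 setting and 0 reversed: 19 on leaving out a library, 8 with library size alone as scaling, 6 with DESeq2, 4 with RLE size factors, 4 with the replicate block, 4 of 49 with all 21 libraries in one fit, 2 without the filter and 1 of 92 with only the 2 groups compared. A call whose gene no longer passed the filter under a setting was not counted as lost there, so these figures are minima. Same-numbered libraries of different groups did not deviate together (correlations -0.028 to 0.028), so the numbers do not pair them; with the replicate block, 4 members in place of 2 were lower in C6FAE-C6F(L) than C6FAE, and 1 in place of 2 in C6F5UE-C6F(L)V than C6FAE-C6F(L). With no minimum fold change, higher and lower members were 8 and 7 for C6FAE against MEF, 13 and 3 for C6F(L) against MEF, 14 and 6 for C6FAE-C6F(L) against MEF, 12 and 6 against C6FAE, 8 and 8 against C6F(L), 14 and 7 for C6F5UE-C6F(L)V against pHeps, 10 and 10 for NSF-CiHeps against pHeps and 9 and 12 against C6F5UE-C6F(L)V. In the same setting 19 were higher in NSF-CiHeps than MEF, 4 in C6FAE-C6F(L) than pHeps, 22 in C6F5UE-C6F(L)V than C6FAE-C6F(L), 3 lower there, and 5 above 0 in the interaction. The shares of all genes in this setting are not reported here, so these counts cannot be read as a trait of the members. With only the 2 groups compared, 1 was lower in NSF-CiHeps than MEF and 1 higher in C6FAE-C6F(L) than pHeps, the latter also 1 with RLE and with DESeq2. With library size alone, 3 were lower in NSF-CiHeps than pHeps and 1 in C6F5UE-C6F(L)V than C6FAE-C6F(L), and the summed level was 1510.1 CPM in MEF, 1616 in C6FAE, 1733 in C6F(L) and 2609 in pHeps. Leaving out a library gave 2 to 4 lower against C6FAE, 2 to 5 against C6F(L), 1 to 2 higher in C6FAE-C6F(L) than pHeps, 4 to 8 lower in NSF-CiHeps than pHeps, and 1 to 2 lower in C6F5UE-C6F(L)V than C6FAE-C6F(L). Without scaling by length, the Cpt1c share of the 3 Cpt1 genes was 14.7% in pHeps, 30.0% in MEF, 31.3% in C6FAE-C6F(L), 42.5% in C6FAE, 42.6% in NSF-CiHeps, 50.0% in C6F(L) and 56.3% in C6F5UE-C6F(L)V. The causes of these moves were not tested. With 2 pHeps libraries and 0 to 4 counts of Fabp1 and Acox2 in MEF, C6FAE and C6F(L), the size of folds against those groups is limited by depth.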
